A study of Rattus norvegicus with 12 samples.

Results

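This report describes 10 genes of lymphocyte traffic, the lymphoid chemokines Ccl19, Ccl21, Cxcl13 and Cxcl12, their receptors Ccr7, Cxcr5 and Cxcr4, and the high endothelial venule genes Madcam1, Glycam1 and Chst4. They were chosen by name and are 10 of the 16511 genes in a table of read counts from mammary glands of Sprague Dawley (SD) rats at PND21. The HBF group held 6 libraries (1 to 6) from offspring of dams fed a high-butterfat form of the AIN-93G diet, and the control group held 6 libraries (7 to 11 and 14) from offspring of dams on the unmodified AIN-93G diet. By the deposited labels and design text each library came from a snap-frozen gland, with 1 gland per litter, and no BPA is named. The study's methods describe RNA from microdissected epithelia of HBF and HBF + BPA animals instead, and the sources do not settle this difference, which bears on the meaning of every stromal, lymphocyte and venule level below. The design text deposited with the counts begins the diets in gestation and gives ends that differ between its sentences, whereas the study's methods begin them before mating and return all dams to the control diet after birth, so the window of exposure was not settled. The libraries of a diet are numbered together, so the order of the libraries and the diet cannot be told apart.

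Total counts lay between 2320267 and 2944680 per library, and a level of 3 counts, taken as the smallest that can be detected, was between 0.945 and 1.30 CPM. CPM put the counts of all libraries on a common scale set by edgeR's TMM factors. Epithelial keratins were present in all 12 libraries, as were stromal genes, with a summed level of at least 14268 CPM for adipocyte and 23503 CPM for fibroblast markers in every library. The milk protein genes Csn2 and Csn1s2a had 0 counts in all of them.

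Lymphoid chemokines guide lymphocytes and dendritic cells to where they meet. Stromal and endothelial cells of lymph nodes and lymphatic vessels make Ccl19 and Ccl21, which bind Ccr7 on naive T cells and mature dendritic cells, while Cxcl13 draws Cxcr5-bearing B cells into follicles and Cxcl12 acts on Cxcr4 in most tissues. Lymphocytes leave the blood through high endothelial venules, whose glycoproteins include Glycam1 and the mucosal addressin Madcam1, the latter bound by an integrin that contains Itgb7. Rodent Glycam1 is also made by the mammary epithelium and secreted into milk, and rodent mammary fat pads contain lymph nodes.

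HBF library 6 and control library 14 stood apart from the other 10 libraries, and they are named individually throughout. The summed level of 8 B cell markers was 436 CPM in HBF 6 and 508 CPM in control 14, against 3.77 to 98.1 CPM in the other 10. The summed level of 12 T cell markers was 1110 CPM in HBF 6 and 1086 CPM in control 14, against 20.5 to 414 CPM. HBF 1 and HBF 2 came next on both lists, with 98.1 and 52.1 CPM for B cell markers and 414 and 178 CPM for T cell markers. Fewer cells of a type and less RNA per cell cannot be told apart in bulk tissue.

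**Figure D1:**
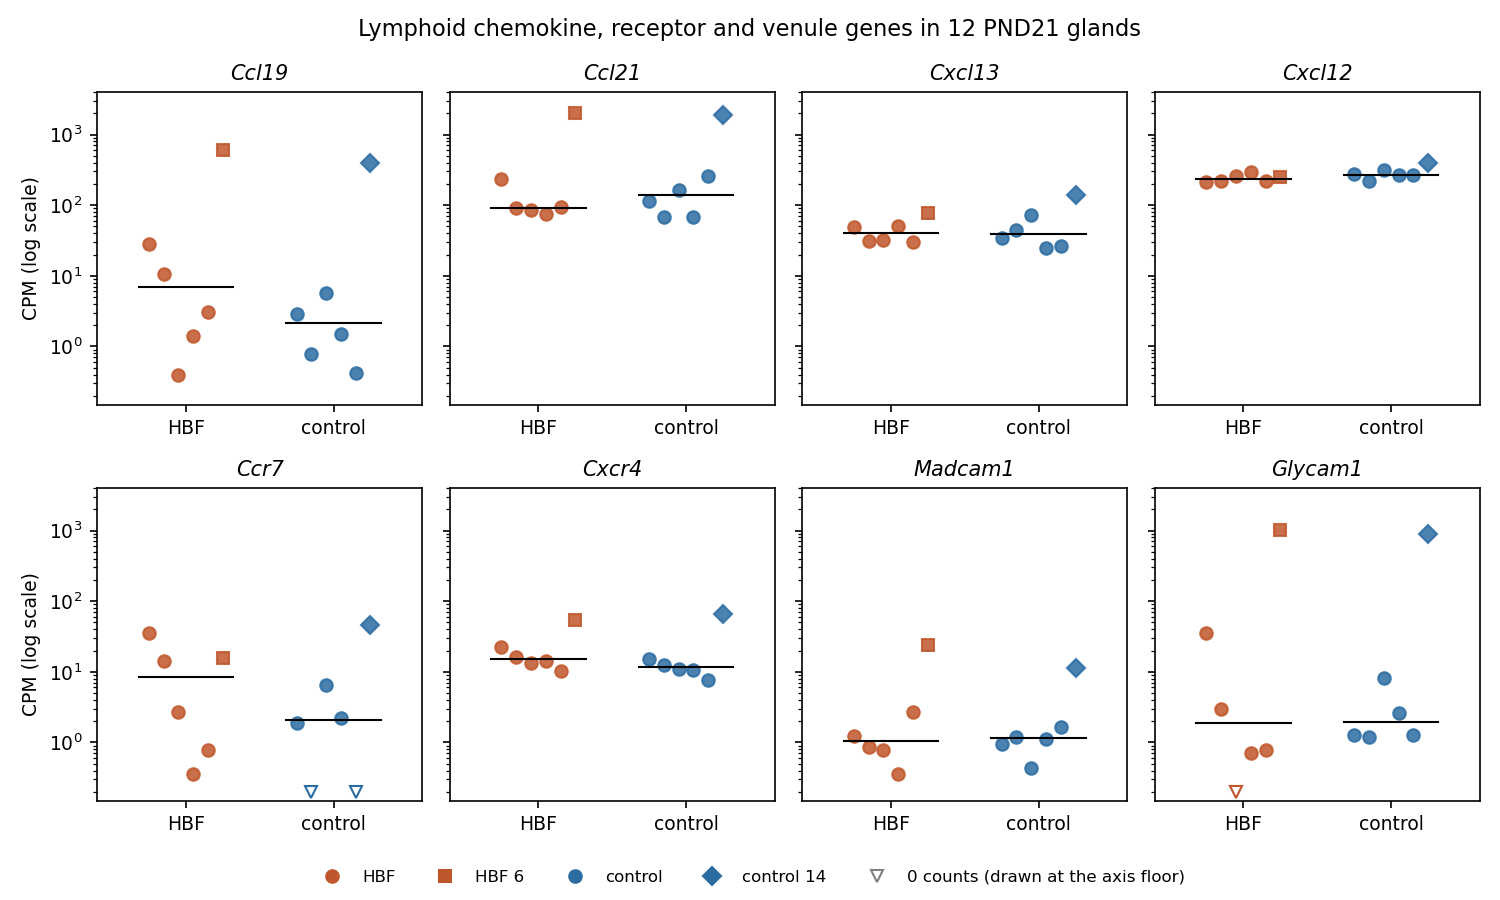
CPM of 8 members (log axis) in each library of the HBF (n = 6) and control (n = 6) diets, with the median of each diet as a line and 0 counts as open triangles at the axis floor. HBF 6 and control 14 are the highest libraries for Ccl19, Ccl21, Cxcl13, Cxcr4, Madcam1 and Glycam1, and the diets overlap for every gene shown.

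Since 4 members, Ccl19, Ccl21, Madcam1 and Glycam1, were far higher in these same libraries than elsewhere, the 250 bases before their transcription starts are shown, 5′ to 3′ on the gene's strand. Of the 10 members, 8 matched the RefSeq promoter table of the GRCr8 assembly, and Ccr7 and Cxcr5 did not. All 4 genes lie on the minus strand, Ccl19 at chr5:61761165-61761414, Ccl21 at chr5:61777516-61777765, Madcam1 at chr7:10690323-10690572 and Glycam1 at chr7:136561300-136561549. Capitals mark matches to the NF-kB consensus in Madcam1 and to the STAT motif TTCNNNGAA in Glycam1, each searched on both strands.
Ccl19: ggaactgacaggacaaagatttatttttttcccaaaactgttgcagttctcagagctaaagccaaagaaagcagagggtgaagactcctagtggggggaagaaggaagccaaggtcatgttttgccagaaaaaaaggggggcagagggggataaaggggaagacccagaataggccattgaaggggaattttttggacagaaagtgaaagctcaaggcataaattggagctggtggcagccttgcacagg
Ccl21: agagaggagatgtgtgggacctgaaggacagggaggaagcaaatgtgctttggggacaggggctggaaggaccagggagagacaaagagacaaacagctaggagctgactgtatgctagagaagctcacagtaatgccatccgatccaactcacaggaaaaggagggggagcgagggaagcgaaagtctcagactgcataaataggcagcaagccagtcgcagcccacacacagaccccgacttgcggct
Madcam1: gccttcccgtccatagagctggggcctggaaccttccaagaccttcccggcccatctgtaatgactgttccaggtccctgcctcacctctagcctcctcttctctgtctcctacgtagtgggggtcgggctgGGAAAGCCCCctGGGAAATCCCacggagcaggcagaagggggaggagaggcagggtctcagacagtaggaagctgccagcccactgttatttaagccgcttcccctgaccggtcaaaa
Glycam1: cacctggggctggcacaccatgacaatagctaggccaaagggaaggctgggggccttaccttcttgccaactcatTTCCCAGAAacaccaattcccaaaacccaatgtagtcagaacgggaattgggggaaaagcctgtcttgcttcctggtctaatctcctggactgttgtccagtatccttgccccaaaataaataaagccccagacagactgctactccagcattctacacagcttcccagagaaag
The Madcam1 window held 2 matches to the NF-kB consensus, which begin 118 and 106 bases before the start. No other member's window had a match, and 3.54% of the 33469 promoters of this length in the table had at least 1. Glycam1 was the only one of the 8 members with TTCNNNGAA, at 175 bases before the start, in a table where 7.67% of promoters had it. The motif TATAAA on the gene's strand was found in Cxcl13 and Cxcr4, 33 and 44 bases before their starts, and in 8.06% of promoters. GGAAGT, searched on both strands, was in none of the 8 members and in 19.2% of promoters. These are matches of letters, and binding was not measured.

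Ccl19 and Ccl21, the ligands of Ccr7, differed more between libraries than between diets. Ccl19 was at 27.8, 10.7, 0.389, 1.43, 3.08 and 595 CPM in HBF 1 to 6 and at 2.83, 0.788, 5.63, 1.48, 0.419 and 395 CPM in control 7 to 11 and 14. HBF 6 was 21.4 times and control 14 was 14.2 times as high as HBF 1, the next library, and in 5 other libraries Ccl19 had fewer than 5 counts. Ccl21 was at 237, 90.5, 84.3, 74.1, 93.3 and 2006 CPM in HBF 1 to 6 and at 114, 68.9, 162, 67.6, 262 and 1864 CPM in the control libraries in the same order. It was read in all 12 libraries with at least 175 counts, and HBF 6 and control 14 were 7.65 and 7.11 times as high as control 11, the next library. The diets overlapped for both genes.

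Cxcl13, the B cell attractant, was read in all 12 libraries and varied less. It was lowest at 29.7 CPM, with a median of 40.9 and a highest value of 78.2 CPM, in the HBF libraries, and ran from 25.1 through a median of 39.6 to 141 CPM in the control libraries. Control 14 was the highest and HBF 6 the second, and the latter was 1.09 times as high as control 9, so it did not stand clear of the other libraries. Cxcl12, the stromal ligand of Cxcr4, was the steadiest member. It lay between 214 and 292 CPM with HBF (median 235) and between 218 and 395 CPM with the control diet (median 270). Control 14 was highest, HBF 6 at 248 CPM lay among the others, and the diets overlapped.

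The spread of log2 CPM within the diets, pooled over both, put numbers to this order. It was 0.24 for Cxcl12 and 0.77 for Cxcl13, against a median of 0.40 and a 90th percentile of 0.93 over the 9382 genes tested. It was 1.81 for Ccl21, and 99.5% of the tested genes had a smaller spread. Without HBF 6 and control 14 the spread was 0.19 for Cxcl12, 0.50 for Cxcl13 and 0.75 for Ccl21.

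Of the receptors, Ccr7 differed from its ligands in the order of its highest libraries. Ccr7, carried by naive T cells and mature dendritic cells, was at 36, 14.1, 2.72, 0.356, 0.771 and 15.5 CPM in HBF 1 to 6 and at 1.89, 0, 6.50, 2.22, 0 and 45.9 CPM in control 7 to 11 and 14. Control 14 was the highest library, HBF 1 the second and HBF 6 the third, so HBF 1 stood above HBF 6 for the receptor and far below it for both ligands. After these libraries, HBF 2 and control 9 came next for both Ccr7 and Ccl19. No read fell on Ccr7 in control 8 and control 11, which allows a level of up to 1.18 and 1.26 CPM.

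Cxcr4, the receptor of Cxcl12 found on most leukocytes, ranged from 10.4 to 54.4 CPM with HBF (median 15.2) and from 7.55 to 65.1 CPM with the control diet (median 11.7). Control 14 and HBF 6 were highest, 2.89 and 2.42 times as high as HBF 1, and the remaining libraries of the diets overlapped. Cxcr5, the receptor of Cxcl13 on B cells, had 26 counts in all, between 0 and 7 per library. It had 7 counts in control 14 and 0 in HBF 6, where B cell markers were also high, so its level could not be read at this depth and no fold change is given.

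Of the venule genes, Glycam1 was nearly confined to the same libraries. Glycam1, a mucin-like glycoprotein of these venules, had 2556 counts in HBF 6 and 2586 in control 14, of 5277 in all libraries together. Its levels were 36, 2.99, 0, 0.713, 0.771 and 1014 CPM in HBF 1 to 6 and 1.26, 1.18, 8.23, 2.59, 1.26 and 900 CPM in control 7 to 11 and 14. HBF 6 and control 14 were 28.2 and 25 times as high as HBF 1, and HBF 1 was itself above the remaining 9 libraries. The 0 counts of HBF 3 allow a level of up to 1.17 CPM.

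Madcam1, the addressin bound by the integrin with Itgb7, had 60 counts in HBF 6 and 33 in control 14 and between 1 and 7 in the other 10 libraries. Its level was 23.8 CPM in HBF 6 and 11.5 CPM in control 14, against 0.356 to 2.70 CPM elsewhere, where it was near the smallest detectable level. HBF 1 had 1.23 CPM of Madcam1 and so did not stand out as it did for Glycam1. Chst4, a sulphotransferase of high endothelial venules, had 2 counts, both in control 14, and a level of up to 0.945 to 1.30 CPM in the other libraries could have gone undetected. No fold change is given for it.

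HBF 6 and control 14 were the 2 highest libraries for 6 of the 8 members with at least 10 counts per library on average. Over all 9530 genes with that many counts the same held for 2185 (22.9%), so a large part of the transcriptome was highest in these libraries. Madcam1 reached the minimum only through these libraries. With the minimum applied to the other 10 libraries, the same held for 5 of 7 members and for 2040 of 9397 genes (21.7%). They were singled out after the members' values had been seen, and the counts are given as a description.

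Between the diets, no member passed the adjusted threshold of 0.05. With edgeR and Benjamini-Hochberg adjustment over all 9382 genes tested, 0 (0%) had an adjusted p under 0.05, and 220 (2.34%) had an unadjusted p under 0.05. DESeq2 and limma voom with quality weights also called 0 genes after adjustment, with 271 and 613 genes at an unadjusted p under 0.05. Only Ccl21, Cxcl13, Cxcl12 and Cxcr4, 4 of the 10 members, passed the filter on low counts, and 0 of them had an unadjusted p under 0.05. The HBF and control libraries did not overlap for 10 genes (0.107%), none of them a member.

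Cxcl12 had the smallest unadjusted p of these 4 in edgeR. It was at 242 ± 30 CPM with HBF and 288 ± 60.2 CPM with the control diet (SD, n = 6 each), a log2 fold change of -0.25 (SE 0.15, edgeR adjusted p = 0.999), and 1 of 6 HBF libraries was above the control median. The log2 fold change was -0.34 (SE 0.42) for Cxcl13, 0.02 (SE 1.05) for Ccl21 and 0.09 (SE 0.56) for Cxcr4, with 3, 2 and 5 of 6 HBF libraries above the control median, and edgeR gave all 3 an adjusted p of 0.999. The median over all genes tested was 0.00 on the same scale.

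Without HBF 6 and control 14 the log2 fold change was -0.14 (SE 0.12) for Cxcl12, -0.05 (SE 0.28) for Cxcl13, -0.21 (SE 0.40) for Ccl21 and 0.42 (SE 0.25) for Cxcr4, and the adjusted p in edgeR was between 0.919 and 0.984. The value for Ccl21 was near 0 with all libraries, and its sign changed with the libraries left out. It had a log2 fold change of -1.88 without HBF 6 alone (edgeR adjusted p = 0.999) and of 1.72 without control 14 alone (edgeR adjusted p = 0.684). Likewise Cxcr4 was at -0.42 without HBF 6 and at 0.96 without control 14 (edgeR adjusted p = 0.684 for the latter). Cxcl13 was at -0.57 without HBF 6, at 0.18 without control 14 and at 0.02 with limma voom and all libraries.

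The other 4 members with enough counts to fit were read from the edgeR test without a filter. Their log2 fold changes were 0.62 (SE 1.62) for Ccl19, 0.29 (SE 1.14) for Ccr7, 0.77 (SE 0.99) for Madcam1 and 0.18 (SE 1.84) for Glycam1, all at an adjusted p of 0.998, with 4, 4, 3 and 3 of 6 HBF libraries above the control median. Without HBF 6 and control 14 they were 1.94 (SE 0.86) for Ccl19 and 2.34 (SE 1.03) for Ccr7, both at an adjusted p of 0.856 in edgeR. HBF 1 and HBF 2 were the highest of the remaining libraries for both genes. In the same fit the log2 fold change was 0.14 (SE 0.58) for Madcam1 and 1.499 (SE 1.04) for Glycam1, with an adjusted p in edgeR of 0.981 and 0.856. Leaving out a single library moved the log2 fold change from -2.96 to 5.53 for Ccl19 and from -0.51 to 2.44 for Ccr7. It moved from -1.22 to 2.14 for Madcam1 and from -4.24 to 5.92 for Glycam1, so each sign turned.

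**Figure D2:**
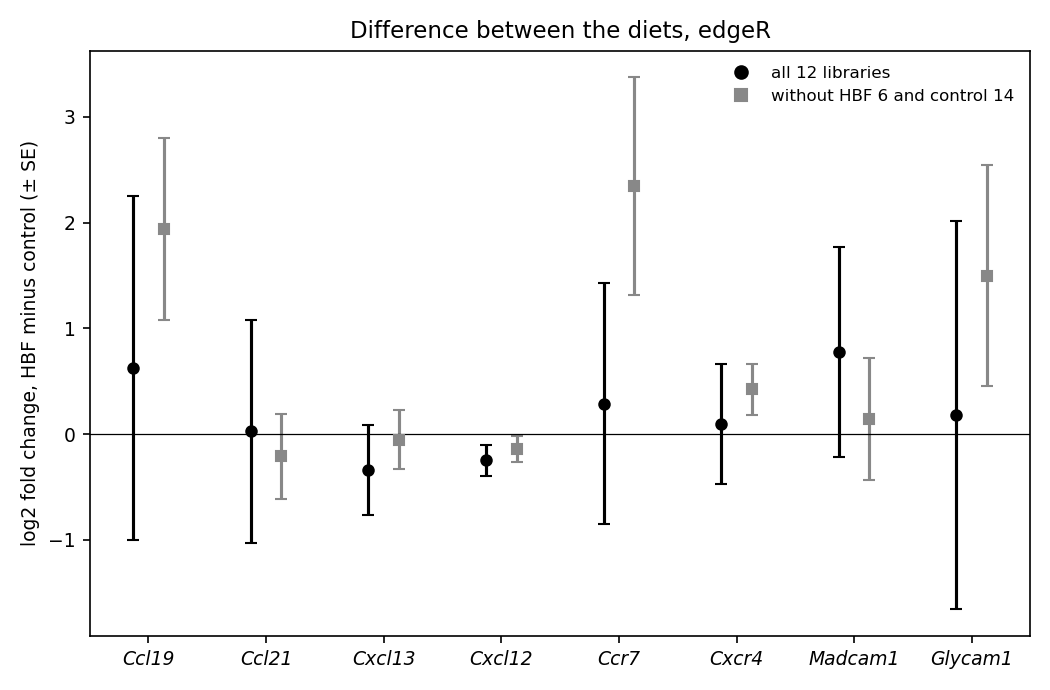
Log2 fold change of HBF minus control for 8 members with its standard error, from edgeR with all 12 libraries (circles) and without HBF 6 and control 14 (squares). The bars of Glycam1, Ccl19, Ccr7 and Ccl21 span more than 1 unit on either side with all libraries, and no member had an adjusted p under 0.05 in either fit.

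The cell type marker lists show what else varied with the members. The B cell list was led by Cd79b, with 657 counts in both HBF 6 and control 14 and at most 52 elsewhere. The T cell list was led by Lck. Dendritic cell markers, led by Ccl22, summed to 121 CPM in HBF 6 and 95 CPM in control 14, against 0.386 to 22.9 CPM. Blood vessel endothelial markers, led by Pecam1, summed to 818 and 815 CPM, against 181 to 296 CPM. The other 10 libraries were lower than these on each list.

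Not all markers of these cells were high in HBF 6. Cd4 had 12 counts there, the lowest of all libraries, and Cd28 had 0, while Cd8a had 345, the highest. Among the vessel genes Cdh5 had 7 counts and Cd34 had 10 in HBF 6, the lowest of all libraries, whereas Plvap and Esam had 608 and 404. Control 14 had 78 counts of Cdh5 and 45 of Cd34.

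The stroma of the gland moved the other way in these libraries. Adipocyte markers, led by Fabp4, summed to 17590 CPM in HBF 6 and 14268 CPM in control 14, against 27217 to 34652 CPM. Fibroblast markers, led by Col3a1, summed to 25028 and 23503 CPM, against 34537 to 54484 CPM. Lymphatic endothelial markers, led by Lyve1, were at 141 and 85.6 CPM, below the 156 to 231 CPM of the other libraries. This sum rested on Lyve1 and Pdpn, with means of 127 and 38.7 CPM over all libraries. Prox1 and Flt4, at means of 0.80 and 2.36 CPM, were near the smallest detectable level. The part of these cell types in the levels of the members was not tested.

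**Figure D3:**
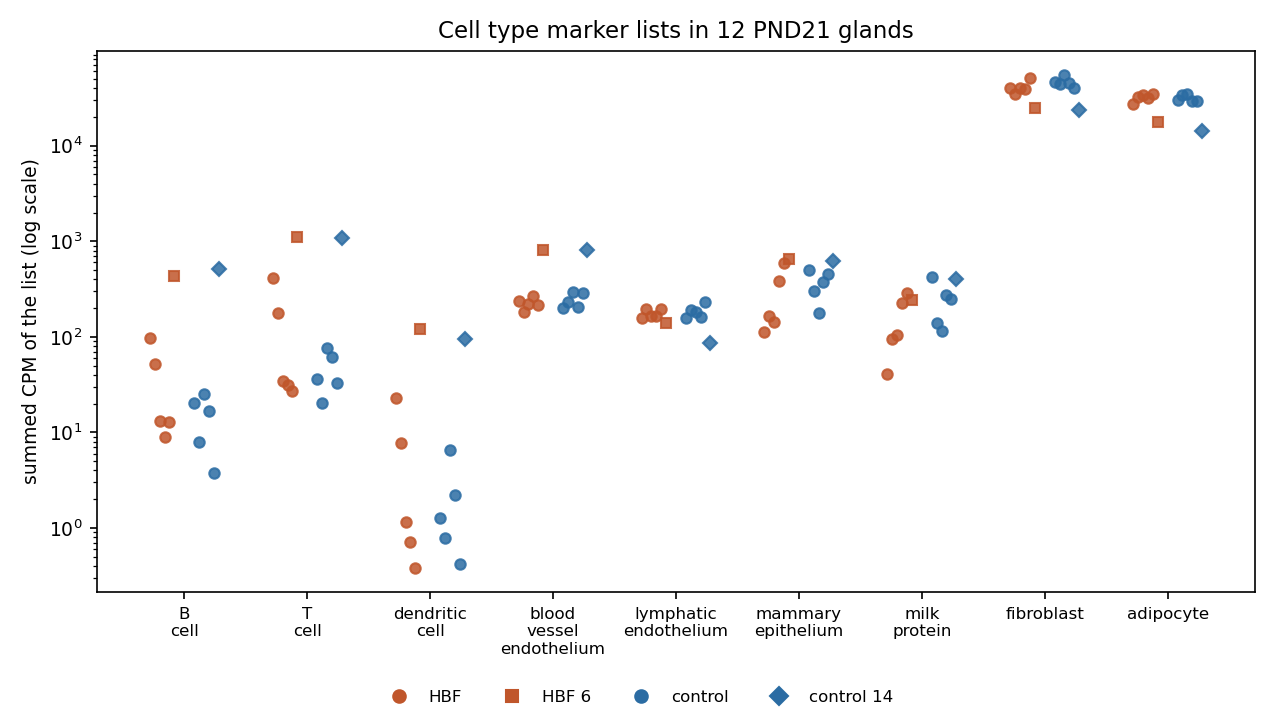
Summed CPM (log axis) of 9 marker lists in each HBF and control library. HBF 6 (squares) and control 14 (diamonds) are highest for B cell, T cell, dendritic cell, blood vessel and, by a small margin, mammary epithelium markers and lowest for lymphatic endothelial, fibroblast and adipocyte markers.

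Mammary epithelium markers, led by Krt8, were also highest in sum in HBF 6 and control 14, at 648 and 627 CPM, but HBF 5 was close to them at 600 CPM and the lowest library, HBF 1, was at 114 CPM. Of the 6 genes in this sum, only Krt18 and Krt19 had HBF 6 and control 14 as the 2 highest libraries. Epcam and Cdh1 were highest in control 7 and control 11. HBF 1, HBF 2, HBF 3, control 8 and control 9 were the lowest libraries for both the epithelial and the milk protein sum. The milk protein sum was highest in control 7 instead of HBF 6. The sums of muscle and blood markers did not share the order of the epithelial sum. Milk protein genes, led by Lalba, ran from 40.5 to 286 CPM with HBF and from 114 to 421 CPM with the control diet. Csn1s1, the alpha-S1 casein gene of that list, was at 52.9 ± 20.5 CPM with HBF and 125 ± 67.6 CPM with the control diet (SD, n = 6 each), a log2 fold change of -1.24 (SE 0.38, edgeR adjusted p = 0.999). Skeletal muscle markers, led by Acta1, ran from 384 to 6407 CPM and from 192 to 6783 CPM, and red blood cell markers, led by Hbb, from 9213 to 82280 CPM and from 7946 to 51176 CPM. Of all 11 marker lists, Csn1s1 was the only gene with an unadjusted p under 0.05, and 0 had an adjusted p under 0.05 in edgeR.

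Relations between members and markers were computed for 9 members and 6 lists, 54 in all, on log2 CPM against the log2 summed CPM of the list. Cxcr5 is among the 9, but its level could not be read at this depth, so its r here and below is not interpreted. Over all 12 libraries 24 of them had an adjusted p under 0.05 (permutation test of Pearson r, Benjamini-Hochberg adjustment over the 54), and 7 had one by Spearman rho. Without the 2 libraries farthest from the median of the list, which were HBF 6 and control 14 for B cell, T cell and fibroblast markers, 4 had one by r and 2 by rho. Many other genes followed these lists over 12 libraries. Of 9524 genes with at least 10 counts per library on average that are not on the B cell list, 10.9% had an r with it as high as Cxcl13, the weakest of the 7 members that passed for that list. For T cell markers, where 7 members passed as well, the share was 11.8%. For lymphatic endothelial and fibroblast markers, with 5 members each and negative r, it was 11% and 4.73%. For that reason r is given below over the other 10 libraries.

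Over those 10 libraries Ccr7 followed B cell markers (r = 0.966, permutation p = 1e-05, the smallest that the resampling gives, and 0.00054 after adjustment; rho = 0.948, p = 0.00016, 0.00864 after adjustment). It also followed T cell markers (r = 0.944, permutation p = 0.00011, 0.00252 after adjustment; rho = 0.900, p = 0.00099, 0.0267 after adjustment). Ccl19 followed B cell markers with r = 0.928 (permutation p = 0.00014, 0.00252 after adjustment) and rho = 0.818 (p = 0.0058, 0.0788 after adjustment). With T cell markers Ccl19 had r = 0.890 (permutation p = 0.00126, 0.0170 after adjustment) and rho = 0.673 (p = 0.0394, 0.292 after adjustment). As high an r as that of Ccl19 was found for 0.241% of such genes with B cell and for 1.11% with T cell markers. HBF 1 and HBF 2 were the highest of the 10 on both lists. When they were left out too, r over 8 libraries was 0.885 for Ccr7 with B cell markers (exact permutation p = 0.00377, 0.123 after adjustment) and 0.817 with T cell markers (exact p = 0.0103, 0.139 after adjustment). For Ccl19 it fell to 0.747 with B cell markers (exact p = 0.0314, 0.316 after adjustment) and to 0.504 with T cell markers (exact p = 0.204, 0.612 after adjustment), and 0 of the 54 relations passed.

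The other members did not follow lymphocyte markers past the adjusted threshold over the 10 libraries. Glycam1 came closest, with r = 0.857 against T cell markers (permutation p = 0.00519, 0.0546 after adjustment; rho = 0.818, p = 0.00584, 0.0788 after adjustment), and Cxcr4 had r = 0.800 against B cell markers (permutation p = 0.00607, 0.0546 after adjustment; rho = 0.661, p = 0.0433, 0.292 after adjustment). Ccl21 had r = 0.197 against B cell markers (permutation p = 0.594, 0.760 after adjustment; rho = 0.224, p = 0.535, 0.876 after adjustment), and Madcam1 had r = -0.162 (permutation p = 0.657, 0.772 after adjustment; rho = -0.224, p = 0.536, 0.876 after adjustment). With all 12 libraries both had passed by r but not by rho (0.545 for Ccl21 and 0.287 for Madcam1, 0.238 and 0.566 after adjustment). Madcam1 had between 1 and 7 counts in the 10 libraries, so a relation there was hardly measurable.

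Glycam1 did not track the milk protein genes, with which it shares a secretory source in lactation. Its r against them was 0.104 over 12 libraries (permutation p = 0.746, 0.775 after adjustment; rho = 0.00, p = 1.00, 1.00 after adjustment) and 0.340 without HBF 1 and HBF 2, the libraries farthest from the median of that list. For milk protein and for mammary epithelium markers, 0 of 9 relations passed in each of the settings tried.

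**Figure D4:**
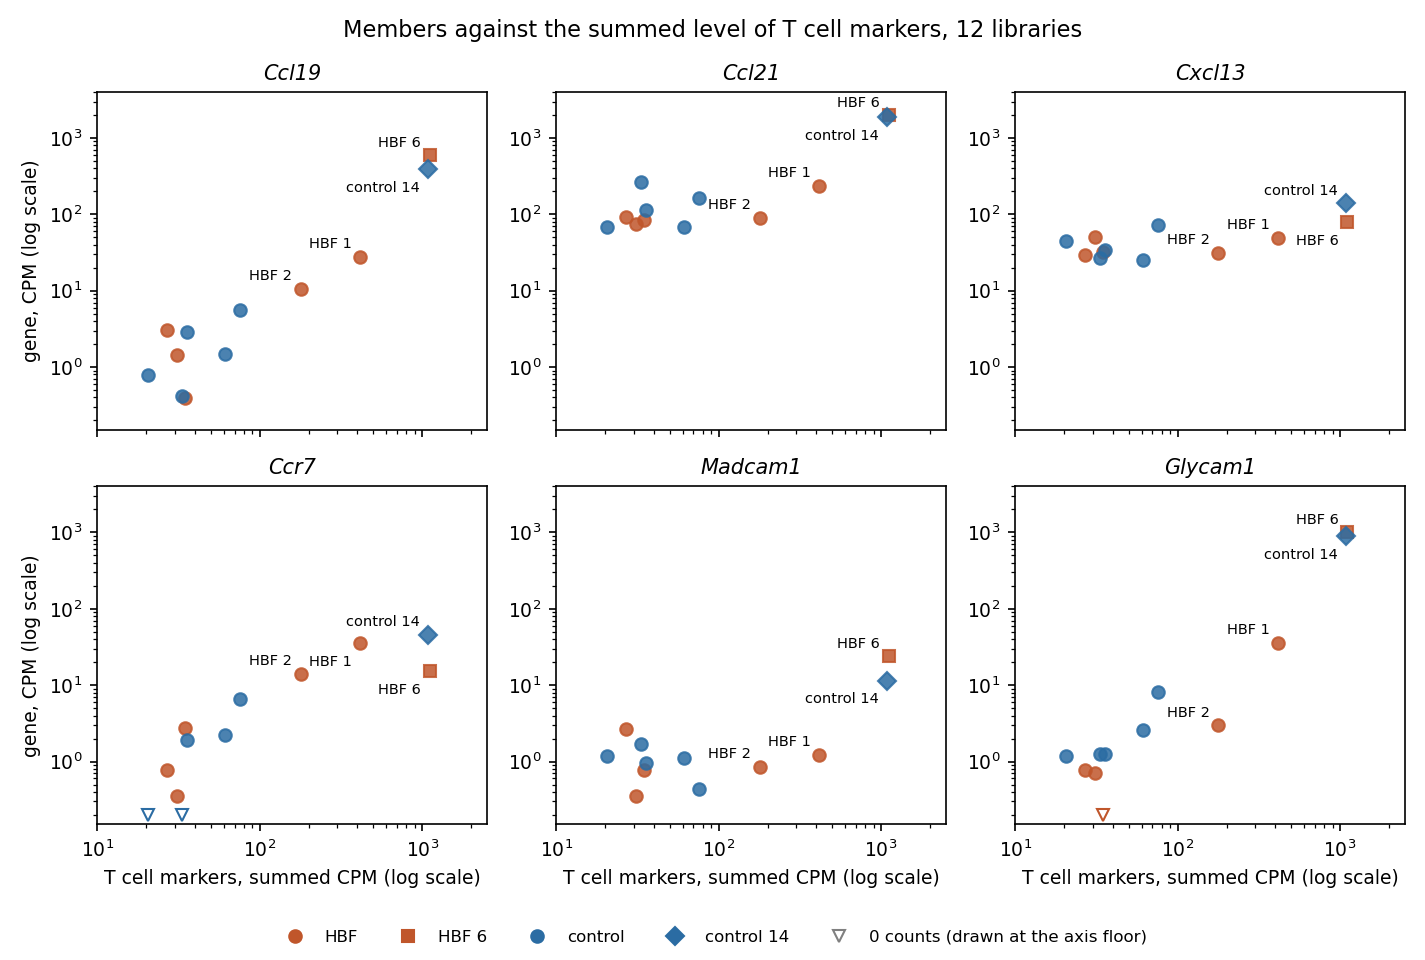
CPM of 6 members against the summed CPM of T cell markers (both axes log) in 12 libraries, coloured by diet, with 0 counts as open triangles at the axis floor. Among the libraries other than HBF 6 and control 14, HBF 1 is the highest for Ccl19, Ccr7 and Glycam1, while Madcam1 stays at 0.356 to 2.70 CPM until HBF 6 and control 14.

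The ratio of members to T cell receptor genes differed between the 4 libraries with the most T cell markers. Counts were set against the sum of Cd3d, Cd3e and Cd3g in the same library, which was 294 in HBF 1, 110 in HBF 2, 1179 in HBF 6 and 1247 in control 14. Exact binomial-based 95% intervals, which cover counting error only, are given in brackets. The counts of Ccr7 were 29.9% of the Cd3 counts in HBF 1 [23.3 to 38.1] and 30% in HBF 2 [19.7 to 44.6], but 3.31% in HBF 6 [2.34 to 4.55] and 10.6% in control 14 [8.78 to 12.7]. The receptor was lower relative to Cd3 genes in HBF 6 and control 14 than in HBF 1 and HBF 2, and the intervals of the former did not overlap those of the latter.

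Glycam1, Ccl19 and Ccl21 had the opposite order among these 4 libraries. The counts of Glycam1 were 217% of the Cd3 counts in HBF 6 [202 to 232] and 207% in control 14 [194 to 222], but 29.9% in HBF 1 [23.3 to 38.1] and 6.36% in HBF 2 [2.5 to 13.6]. Ccl19 was at 127% in HBF 6 [118 to 137] and 91% in control 14 [83.9 to 98.7], and at 23.1% and 22.7% in HBF 1 and HBF 2. Ccl21 was at 429% in HBF 6 and 430% in control 14, which did not differ beyond counting error, and at 197% and 193% in HBF 1 and HBF 2. Cxcl12 and Cxcl13 ran the same way as Ccr7. Cxcl12 was at 178% in HBF 1 and 472% in HBF 2, but at 52.9% in HBF 6 and 90.9% in control 14, and Cxcl13 was at 41.2% and 67.3%, but at 16.7% and 32.6%. For Cxcl13 the intervals of HBF 1 [33 to 51] and control 14 [29 to 36.4] overlapped. In HBF 3, control 7, control 9 and control 10, where the Cd3 counts were only 14, 22, 35 and 20, Ccl21 was at 1550%, 1641%, 1069% and 915%, above HBF 6 and control 14. Its ratio thus did not rise steadily with the Cd3 counts, which are the denominator of all these values. In HBF 3, control 7, control 9 and control 10, Ccr7 was at 50%, 27.3%, 42.9% and 30%. Ccl19 was at 7.14%, 40.9%, 37.1% and 20% there, and Glycam1 at 0%, 18.2%, 54.3% and 35%, in part above HBF 1 and HBF 2. These ratios compare single libraries, which were picked after their marker levels had been seen.

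**Figure D5:**
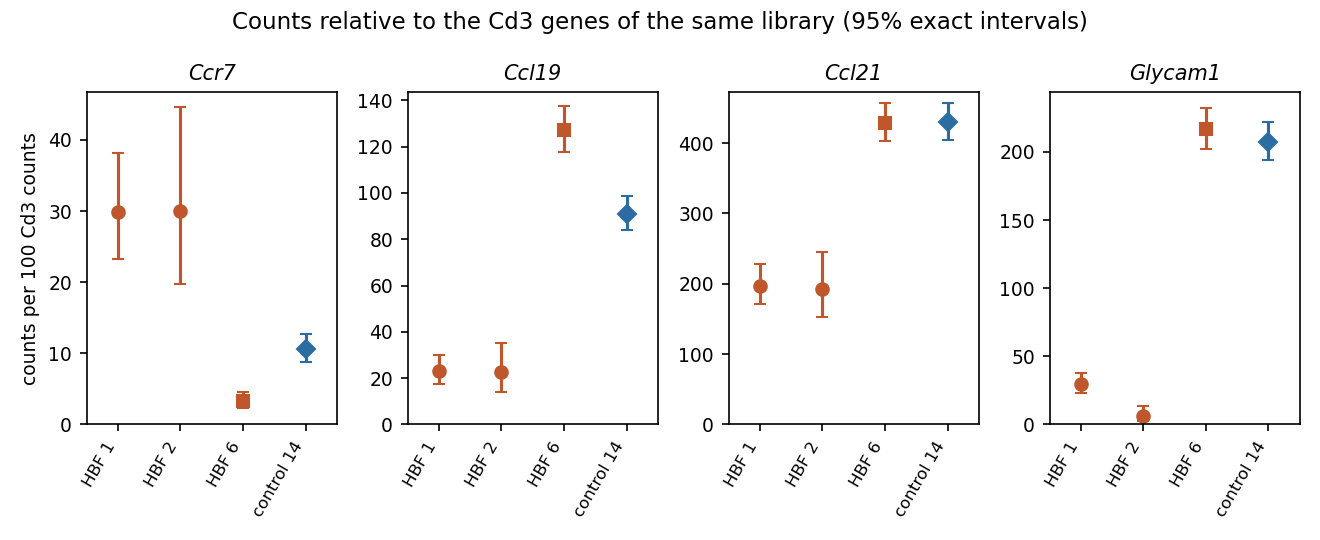
Counts of Ccr7, Ccl19, Ccl21 and Glycam1 relative to the summed counts of Cd3d, Cd3e and Cd3g, in percent, in HBF 1, HBF 2, HBF 6 and control 14, with exact 95% intervals for counting error. Ccr7 is higher in HBF 1 and HBF 2, and Ccl19, Ccl21 and Glycam1 are higher in HBF 6 and control 14.

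Other genes of lymphocyte homing were read from a list of venule ligand synthesis and homing genes, of which 22 of 23 were in the table and 16 were tested. Of these 16, 0 had an unadjusted p under 0.05 in edgeR, 7 had a positive and 9 a negative log2 fold change, and the median was -0.02. Enpp2, Spns2 and St3gal4 had the highest mean CPM, with log2 fold changes of -0.15 (SE 0.16), 0.17 (SE 0.40) and -0.01 (SE 0.12). Enpp2 encodes autotaxin, which venules secrete, and Spns2 exports the lipid that lymphocytes follow out of lymphoid tissue. For 6 of the 16, HBF 6 and control 14 were the 2 highest libraries, Gcnt1, Emcn, Itgb7, Icam1, S1pr1 and Spns2, against the 21.7% given above for all genes. Itgb7, which encodes the integrin chain that binds Madcam1, had 252 counts in HBF 6 and 292 in control 14, against 11 to 72 elsewhere. Nkx2-3, a homeobox gene known for its part in Madcam1 expression, had 0 counts in all libraries. A level of up to 0.945 to 1.30 CPM of it could have gone undetected.

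Lymphotoxin and its signalling genes maintain lymphoid stroma and venules. Of 15 listed genes 12 were in the table and 6 were tested, 0 of them with an unadjusted p under 0.05 in edgeR, and their median log2 fold change was 0.08. Ltbr, Tnfrsf1a and Nfkb2 had the highest mean CPM, with log2 fold changes of 0.01 (SE 0.13), -0.02 (SE 0.11) and -0.01 (SE 0.51). For Ltb, Map3k14 and Nfkb2, HBF 6 and control 14 were the 2 highest libraries, which is 3 of the 6 genes of the list with at least 10 counts per library on average in the other 10 libraries, beside the same 21.7% for all genes. The receptor genes Ltbr and Tnfrsf1a were not among them.

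Other chemokine systems were read from a list of homeostatic and a list of inflammatory genes. Of the other homeostatic chemokines, receptors and scavengers, 4 were tested, the median log2 fold change was -0.07, and Cxcl14, Ackr3 and Cxcl16 led at 0.21 (SE 0.22), -0.08 (SE 0.24) and -0.14 (SE 0.24). Of 16 inflammatory chemokines and receptors 5 were tested, with a median of -0.27, and Ccr1, Ccl2 and Ccl7 led at -0.06 (SE 0.47), -0.28 (SE 0.33) and -0.10 (SE 0.26). In both lists 0 genes had an unadjusted p under 0.05 in edgeR. HBF 6 and control 14 were the 2 highest for 0 of the 5 inflammatory genes with at least 10 counts per library on average, and for Cxcl16 and Cx3cl1, 2 of 4, in the homeostatic list. Over genes with any counts they were the 2 highest for 6 of 16 inflammatory, 4 of 13 homeostatic, 5 of 12 lymphotoxin and 10 of 21 homing genes, against 2708 of all 13557 genes (20%). The 6 include Ccl5, a chemokine that T cells make, with 28 and 42 counts against 1 to 11 elsewhere. The summed level of the inflammatory list was 78.6 CPM in HBF 6 and 89.4 CPM in control 14, against 54.5 to 84.3 CPM in the other 10 libraries.

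The genes whose log2 CPM was most like each member's over the 12 libraries were listed as a description. For Ccl21 they were Hip1r, Lpcat1, Xpo6, Pear1 and Tnfrsf25, with r from 0.965 to 0.975, and from 0.724 to 0.885 over the 10 libraries without HBF 6 and control 14. For Cxcl13 they were Ddx20, Sox18, Ttyh3, Elk3 and Depdc5 (r from 0.918 to 0.948), and for Cxcr4 Dhx37, Arrb2, Neurl3, Vamp1 and Eml4 (r from 0.962 to 0.971). Without HBF 6 and control 14, r was from 0.797 to 0.845 for those of Cxcl13 and from 0.733 to 0.892 for those of Cxcr4. Cxcl12 was most like Kcnj8, Eif2ak4, Rgs5, Parp9 and Mtmr11. Kcnj8 and Rgs5, both known as pericyte genes, had r of 0.941 and 0.906, and of 0.962 and 0.874 without HBF 6 and control 14.

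The members that failed the filter were compared in the same way with the 9530 genes of at least 10 counts per library on average, a choice made after seeing the values. Ccl19 was most like Jak3 (r = 0.989 over 12 libraries and 0.958 without HBF 6 and control 14), a kinase of lymphocyte cytokine receptors. The T cell gene Cd2 was the fourth with r = 0.984 over 12 libraries and 0.984 without HBF 6 and control 14. Gpsm3, Mvp and Ptprcap, the others of its 5, had r from 0.983 to 0.985, and from 0.925 to 0.927 without those libraries. Among the genes most like Ccr7 were Gimap4, Ptpn22, Itgal and Akna, with r from 0.951 to 0.968, and from 0.931 to 0.967 without those libraries. Glycam1 was most like Sting1, Prss39, Ccl17, Jak3 and Slc44a2, with r from 0.976 to 0.989, and from 0.850 to 0.933 without HBF 6 and control 14. Madcam1 was most like Wdr74, Ppil2, Abcf1, Snrpa and Rangap1, with r from 0.977 to 0.981, and from 0.757 to 0.869 without HBF 6 and control 14. It had between 1 and 7 counts in the libraries left, so the latter range was hardly measurable.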

How the data were processed

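The authors deposited raw counts of reads per gene, listed by Entrez identifier, for 12 libraries labelled as mammary gland. Per the submitters' processing notes, bcl2fastq, CASAVA 1.8, TopHat and DESeq were used with the rn4 build. The counting program, the annotation, the use of strand and the treatment of reads shared by similar genes are not given in the sources used here, so reads of close copies or overlapping genes could have been split or lost. The RefSeq gene table of GRCr8 gave a symbol for 16351 of the 16511 genes, and 2954 genes had 0 counts in all libraries. Over the 30 pairs of libraries that share a diet, the smallest chi-square per degree of freedom was 6.69, above sampling noise, so no pair looked like repeat reads of the same library. This cannot show that libraries came from separate glands or litters. Each was counted as 1 replicate because the labels and design text give 1 gland per litter.

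The diets were compared as HBF minus control by the quasi-likelihood test of edgeR 4.0.16 (TMM, filterByExpr; R 4.3.3), with Benjamini-Hochberg adjustment over the 9382 genes kept and a threshold of 0.05. Log2 CPM used a prior count of 2. Correlations were tested two-sided with 100000 resamples in Python 3.11.15, or exactly over 8 libraries, on log2 of the summed CPM plus 1. The alternatives were voom with quality weights from limma 3.58.1, DESeq2 1.42.0, its size factors in edgeR, a stricter minimum of 10 counts per library, no filter, each library left out in turn, a prior count of 0.5 and CPM by library total. Leaving out HBF 6 and control 14, leaving out HBF 1 and HBF 2 as well, a minimum of counts set on the other 10 libraries, and no minimum, were added after seeing the data. The scripts were tested on simulated data. Named genes were the members, the 3 genes with the highest mean CPM of each pathway list, the highest of each marker list, those with 0 counts or an unadjusted p under 0.05, and genes among the 5 most like a member; further genes were named after their values were seen. The members and lists were chosen with earlier results of these data known. Listed genes that were not in the table were not analysed here.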

Additional observations from a re-analysis of the deposited data

Results flagged for a closer look

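The highest or lowest library of a diet was set apart when its gap to the nearest other library, divided by the range of the 6 libraries, exceeded Dixon's critical value at the 95% level. For normally distributed values chance does this in about 1 of 20 groups, or 1.9 of the 38 examined, and 22 exceeded it. The values here were CPM without logs, and skewed values exceed it more often. The 22 against 1.9 is therefore no measure of an excess over chance. Most of the 22 share the same pair of libraries, so they are not separate findings, and no explanation was tested.

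For 5 members, HBF 6 and control 14 were far above the rest of their diet. Ccl19 was at 595 CPM in HBF 6 (next HBF 1, 27.8) and 395 CPM in control 14 (next control 9, 5.63), and Ccl21 at 2006 CPM (HBF 1, 237) and 1864 CPM (control 11, 262). Cxcr4 was at 54.4 CPM (HBF 1, 22.5) and 65.1 CPM (control 7, 15.1), Madcam1 at 23.8 CPM (HBF 5, 2.7) and 11.5 CPM (control 11, 1.68), and Glycam1 at 1014 CPM (HBF 1, 36) and 900 CPM (control 9, 8.23). Ccr7 stood apart in control 14 only, at 45.9 CPM (control 9, 6.5).

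The same libraries stood apart on 4 marker lists. B cell markers summed to 436 CPM in HBF 6 (next 98.1) and 508 CPM in control 14 (next 25.1), T cell markers to 1110 CPM (414) and 1086 CPM (75.8), dendritic cell markers to 121 CPM (22.9) and 95 CPM (6.5), and blood vessel markers to 818 CPM (270) and 815 CPM (296). Adipocyte markers were low in control 14, at 14268 CPM against 29358 CPM in the next control library.

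Red blood cell markers were high in HBF 2, at 82280 CPM against 29549 CPM in HBF 5, and in control 9, at 51176 CPM against 12852 CPM in control 11. These libraries were not the highest for any member.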

How the results depend on the processing

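No gene had an adjusted p under 0.05 in any setting. Of 136 alternative log2 fold changes of members 110 kept their direction, and of 216 alternative correlations 146 kept direction and side of the threshold, 30 lost the threshold, 2 passed it and 38 turned. The cause of the changes below was not tested. The number of genes at an unadjusted p under 0.05, 220 with edgeR, was 613 with limma voom, 431 without HBF 6 and control 14, and 135 (without HBF 5) to 587 (without control 14) when a library was left out.

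With limma voom the log2 fold change turned for Ccl21 (-0.18), Cxcl13 (0.0218), Madcam1 (-0.12) and Glycam1 (-0.41), and without HBF 6 and control 14 for Ccl21 (-0.21). Leaving out a library moved it from -2.96 to 5.53 for Ccl19, -1.88 to 1.72 for Ccl21, -0.57 to 0.18 for Cxcl13, -0.32 to -0.12 for Cxcl12, -0.51 to 2.44 for Ccr7, -0.42 to 0.96 for Cxcr4, -1.22 to 2.14 for Madcam1 and -4.24 to 5.92 for Glycam1. Glycam1 was also at -0.0814, -0.0803, -0.0689, -0.0787 and -0.0801 without control 7, 8, 9, 10 and 11, Ccl21 at -0.17, -0.20, -0.14, -0.19 and -0.08 without the same, and Cxcr4 at -0.01, -0.03, -0.03 and -0.07 without control 8, 9, 10 and 11. Except for Ccr7, whose lowest value left out HBF 1, and Cxcl12, whose lowest left out control 8, the lowest left out HBF 6, and the highest always left out control 14.

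Of 54 relations 24 passed by r (7 by rho) with all libraries, 4 (2 by rho) without the 2 libraries farthest from the median of the list and 0 (0 by rho) without HBF 1, HBF 2, HBF 6 and control 14. In the first of these settings r turned with B cell markers for Cxcl12 (-0.328) and Madcam1 (-0.162). It turned with T cell markers for Cxcl12 (-0.293) and Madcam1 (-0.134). It turned with milk protein markers for Ccr7 (0.22) and Cxcr5 (0.234). It turned with mammary epithelium markers for Cxcr5 (0.18). It turned with fibroblast markers for Ccl21 (0.00974), Cxcl13 (0.254), Cxcl12 (0.326), Madcam1 (0.167) and Glycam1 (0.0506).

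Over the 8 libraries of the second r turned with B cell markers for Ccl21 (-0.266), Cxcr5 (-0.545) and Madcam1 (-0.346). Among those 8 it turned with T cell markers for Cxcr4 (-0.17) and Madcam1 (-0.424). Among those 8 it turned with lymphatic endothelium markers for Ccl21 (0.644), Cxcr5 (0.376), Madcam1 (0.553) and Glycam1 (0.0629). Among those 8 it turned with milk protein markers for Cxcl13 (-0.513), Cxcl12 (-0.0786), Cxcr5 (0.0322), Cxcr4 (-0.007) and Glycam1 (-0.0736). Among those 8 it turned with mammary epithelium markers for Cxcl13 (-0.456), Cxcl12 (-0.316), Cxcr5 (0.0165), Cxcr4 (-0.182) and Glycam1 (-0.0996). Among those 8 it turned with fibroblast markers for Ccl19 (0.885), Ccl21 (0.0995), Cxcl13 (0.299), Cxcl12 (0.0205), Ccr7 (0.571), Madcam1 (0.168) and Glycam1 (0.682). The fibroblast r of Ccl19 over all libraries had been -0.796.

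No paired analysis was possible because no library number occurs in both diets. DESeq2 gave no p for Ccl19, Ccl21, Madcam1 and Glycam1. Depth limits Cxcr5, Chst4 and, in most libraries, Madcam1. With 6 libraries per diet the standard error of the log2 fold change was 1.62 for Ccl19, 1.05 for Ccl21 and 1.84 for Glycam1, so differences of that size between the diets would not be seen.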
